A study of Mus musculus with 20 samples.

Results

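Steroid hormones of the adrenal gland act on brain cells through the glucocorticoid receptor and the mineralocorticoid receptor, and the genes described here are those 2 receptors and 8 genes that glucocorticoids are known to induce. The 10 genes, Nr3c1, Nr3c2, Fkbp5, Sgk1, Tsc22d3, Zbtb16, Klf9, Errfi1, Cdkn1a and Sult1a1, were taken by symbol from the 39179 genes of the count tables. All 10 were among the 14792 genes tested, which had over 1 CPM, a read count scaled to the total of its library, in at least 3 mice. RNA of the whole bilateral striatum was sequenced from 20 male mice of about 6.5 months, all of generation 17 of a breeding experiment that began from an intercross of 8 inbred strains. One line, High-Active, was selected for high home cage activity, and the other, Control, was not. Each mouse received an intraperitoneal injection in the dark phase, of saline or of 0.25 mg/kg amphetamine, and tissue was taken 2 hours later. Line and injection thus gave 4 groups of 5 mice, Control saline and Control amphetamine in one line and High-Active saline and High-Active amphetamine in the other. Every mouse was handled and injected, so a change common to all injected mice has no comparison here, and plasma corticosterone was not analysed here. There was 1 line of each kind, so selection and drift cannot be told apart.

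Corticosterone, the main glucocorticoid of mice, enters cells and binds receptors held in the cytoplasm by heat shock proteins and co-chaperones. The bound receptors move to the nucleus and raise the transcription of genes whose regulatory DNA carries their palindromic recognition element. The mineralocorticoid receptor binds corticosterone with the higher affinity, whereas the glucocorticoid receptor is filled as the hormone rises with stress or with the daily rhythm, and several of the induced genes dampen the response in turn.

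Reads counted on genes ranged from 32388971 to 53710713 per mouse (median 41703853.5). By the sire and dam labels, Control mice belonged to 8 families and High-Active mice to 5, so mice of a line were not independent of each other. The study's methods instead describe every mouse as drawn from its own family, and the labels were followed here. The 8 striatal projection neuron markers were present in every group, summing to 3565 to 5676 CPM per mouse. The sum of 8 cortical excitatory neuron markers differed between mice. It was 267 to 793 CPM in Control saline mice, 575 to 804 in Control amphetamine mice, 136 to 318 in High-Active saline mice and 187 to 925 in High-Active amphetamine mice. In bulk tissue, fewer cells of a type and less RNA per cell cannot be told apart. The striatum was dissected away from cortex, and the amount of cortex left in each sample was not tested.

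The sequences below are RefSeq promoters of build GRCm38.p6, from 250 bases before to 50 bases after an annotated start, shown because they hold the letters of an element that was searched for. Promoters were listed for 8 of the 10 genes, in 17 windows, of which 6 belonged to Sgk1. Nr3c1 and Zbtb16 were not matched. The receptor hexamer AGAACA was searched on both strands and occurred in 19% of the 32851 promoters in the table. It was found for Sgk1, Sult1a1 and Tsc22d3. The full palindrome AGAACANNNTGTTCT, in which 2 hexamers face each other, occurred in 3 promoters of the whole table (0.00913%), and one of them was the Sgk1 promoter at chr10:21993640-21993939 (+ strand), where it began 189 bases before the start. The looser palindrome ACANNNTGT, which the full one contains, occurred in 6.85% of promoters and, among these genes, for Sgk1 alone. Sult1a1 (chr7:126676369-126676668, - strand) had 2 separate hexamers, and 1 of the 3 Tsc22d3 promoters (chrX:140600473-140600772, - strand) had 1. The cAMP response element TGACGTCA, the site of CREB family factors, occurred in 1.79% of promoters and, among these genes, for Errfi1 (chr4:150854820-150855119, + strand). The windows of Cdkn1a, Fkbp5, Klf9 and Nr3c2 held none of these letters. Capitals mark the hexamers in the first 3 sequences and the cAMP response element in the last. The letters describe the windows only, and receptor binding was not measured.
Sgk1: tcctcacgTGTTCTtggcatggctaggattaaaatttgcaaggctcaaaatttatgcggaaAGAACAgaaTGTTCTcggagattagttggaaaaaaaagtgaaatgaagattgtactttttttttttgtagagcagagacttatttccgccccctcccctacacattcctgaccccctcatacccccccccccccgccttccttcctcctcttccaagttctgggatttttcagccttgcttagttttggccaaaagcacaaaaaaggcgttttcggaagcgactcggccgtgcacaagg
Sult1a1: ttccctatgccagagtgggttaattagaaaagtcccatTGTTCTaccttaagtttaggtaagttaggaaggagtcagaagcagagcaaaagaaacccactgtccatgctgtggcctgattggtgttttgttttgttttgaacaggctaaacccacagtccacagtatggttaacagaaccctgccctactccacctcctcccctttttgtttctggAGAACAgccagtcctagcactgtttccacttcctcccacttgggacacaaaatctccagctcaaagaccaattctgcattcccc
Tsc22d3: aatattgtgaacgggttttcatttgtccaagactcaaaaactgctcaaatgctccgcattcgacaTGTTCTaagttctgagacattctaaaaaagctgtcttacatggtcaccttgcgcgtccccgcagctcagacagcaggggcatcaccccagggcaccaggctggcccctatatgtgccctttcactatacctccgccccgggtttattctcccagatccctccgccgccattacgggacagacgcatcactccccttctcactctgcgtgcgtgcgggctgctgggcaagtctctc
Errfi1: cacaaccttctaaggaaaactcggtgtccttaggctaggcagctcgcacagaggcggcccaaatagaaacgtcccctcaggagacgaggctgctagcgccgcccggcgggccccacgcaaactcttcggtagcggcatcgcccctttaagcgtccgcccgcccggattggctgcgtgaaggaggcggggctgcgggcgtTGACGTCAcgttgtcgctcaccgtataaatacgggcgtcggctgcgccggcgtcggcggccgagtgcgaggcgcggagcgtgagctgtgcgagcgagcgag

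Compared per length, as RPKM, which divides CPM by the kilobases of exon, the 10 genes spanned a wide range in striatum. Klf9 had the highest level, 39.3 ± 5.70 RPKM (SD, n = 20 mice). It was followed by Sgk1 at 23.0 ± 6.27, Tsc22d3 at 18.8 ± 3.73 and Nr3c1 at 15.1 ± 1.26 RPKM (SD, n = 20 each). Errfi1, Nr3c2, Fkbp5, Sult1a1 and Zbtb16 had mean levels between 6.19 and 8.22 RPKM, and neighbours in that order differed by less than 1 SD. Cdkn1a was lowest, at 3.10 ± 1.31 RPKM (SD, n = 20). The glucocorticoid receptor transcript was therefore above the mineralocorticoid receptor transcript, which averaged 7.97 ± 0.57 RPKM (SD, n = 20). The most even of the genes over mice in CPM were Nr3c2, Errfi1 and Nr3c1, with coefficients of variation of 7.11%, 7.97% and 8.34%, and the least even were Cdkn1a (42.1%) and Sult1a1 (38.0%).

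**Figure D1:**
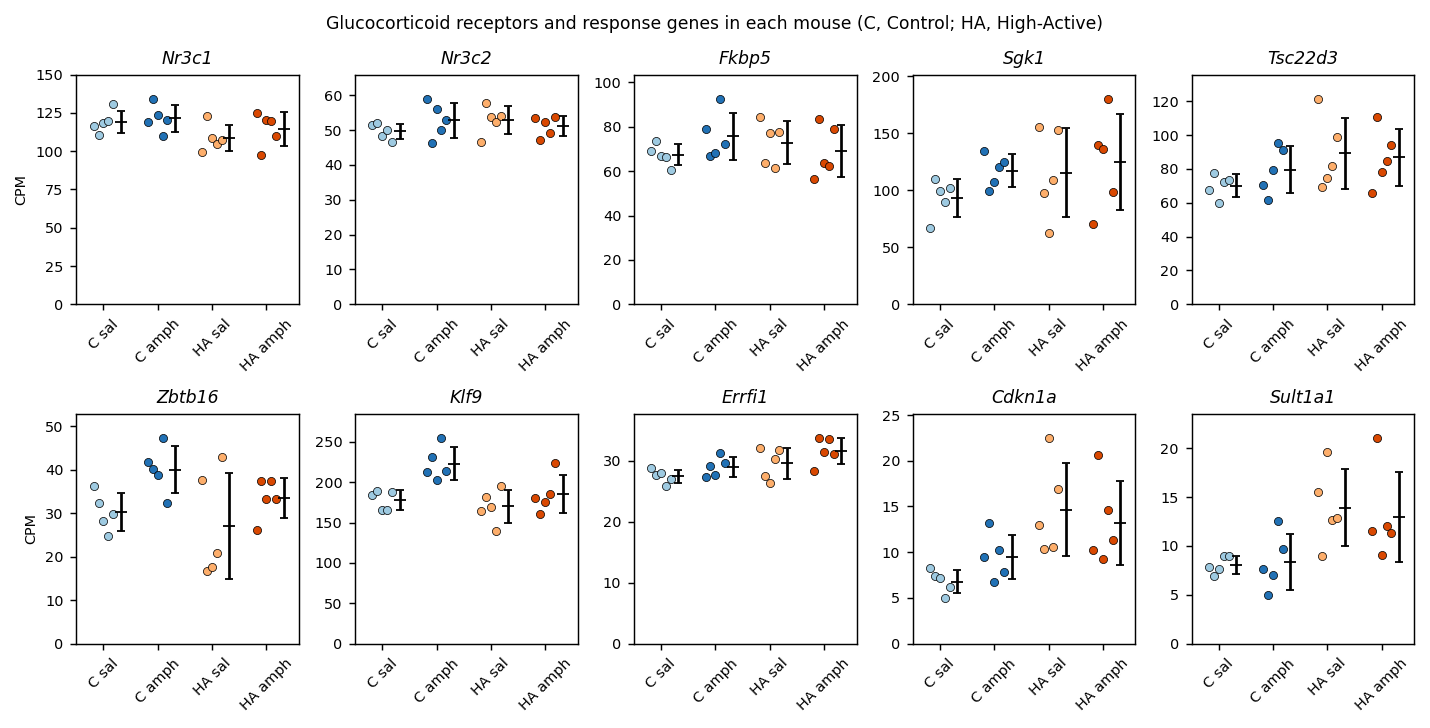
Level of each gene in CPM (y axis, from 0) in each mouse of the 4 groups (x axis), with one point per mouse and the group mean ± SD (n = 5) in black beside the points. Cdkn1a and Sult1a1 were higher in High-Active mice, and Klf9 in Control amphetamine mice lay above all Control saline mice.

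The first comparison asked which of these genes differed between the lines, averaged over both injections. Of the 10 genes, 2 passed an adjusted p of 0.1 in edgeR's quasi-likelihood test, Cdkn1a and Sult1a1, both higher in High-Active mice. Of all genes tested, 14.5% passed (7.63% higher and 6.9% lower), so 2 of 10 was near the background. Both genes were the lowest in level by CPM, and no other gene of the set passed. The median line difference of the 10 genes was 0.07 on the log2 scale, beside -0.00 over all genes tested.

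Cdkn1a (ENSMUSG00000023067, chr17:29090976-29100727, + strand, GRCm38) encodes p21, an inhibitor of cyclin-dependent kinases that p53 and glucocorticoids induce. The 5 Control saline mice had 4.95, 6.19, 7.20, 7.37 and 8.25 CPM, and the 5 High-Active saline mice had 10.4, 10.6, 13.0, 16.9 and 22.4 CPM. After amphetamine the Control mice had 6.76, 7.83, 9.42, 10.2 and 13.1 CPM, and the High-Active mice 9.21, 10.2, 11.3, 14.6 and 20.6 CPM. All High-Active saline mice were above all Control saline mice, whereas the amphetamine groups overlapped. The saline groups did not overlap, whichever was higher, for 4.23% of all genes. The mean rose from 8.13 ± 2.32 CPM in Control to 13.9 ± 4.64 CPM in High-Active mice (SD, n = 10 each). The line difference was 0.79 on the log2 scale, or 1.73-fold (SE 0.17, adjusted p = 0.0101, quasi-likelihood test), and it ranked 278 of 14792 genes by p. Within saline mice it was 1.11 (SE 0.25, adjusted p = 0.0298), a comparison in which 3.74% of all genes passed. Within amphetamine mice the difference was 0.48 (SE 0.24, adjusted p = 0.431), in a comparison in which 1.3% passed. The line by drug difference that compares these values was -0.64 (SE 0.34, adjusted p = 1.00, exact permutation p = 0.106). Its 2 SE interval ran from -1.32 to 0.05 (unadjusted p = 0.0788, quasi-likelihood test). The narrowing after amphetamine thus did not pass, and 5 mice per group did not settle it. The 3 highest mice were the High-Active mice 499 (22.4 CPM), 415 (20.6 CPM) and 886 (16.9 CPM), and mice 415 and 886 had the same parents.

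Sult1a1 (ENSMUSG00000030711, chr7:126672865-126676432, - strand, GRCm38) encodes a sulfotransferase that conjugates phenols, including catecholamines and drugs. Control saline mice had 6.89, 7.62, 7.86, 8.95 and 8.96 CPM, and High-Active saline mice 8.95, 12.7, 12.8, 15.5 and 19.6 CPM. Control amphetamine mice had 5.00, 7.05, 7.69, 9.66 and 12.5 CPM, and High-Active amphetamine mice 9.10, 11.3, 11.5, 12.0 and 21.0 CPM. The lines overlapped under both injections, and 5 of 10 High-Active mice were above every Control mouse. The mean was 8.22 ± 2.00 CPM in Control and 13.4 ± 4.07 CPM in High-Active mice (SD, n = 10 each). This was a line difference of 0.71 on the log2 scale, or 1.63-fold (SE 0.17, adjusted p = 0.0176, quasi-likelihood test). The difference was 0.79 within saline mice (adjusted p = 0.103) and 0.62 within amphetamine mice (adjusted p = 0.276), both short of the threshold. With cortical and oligodendrocyte marker scores as covariates, the line difference was 0.54 (SE 0.20, adjusted p = 0.217). In this fit 453 of 14792 genes passed for the line, beside 2149 without the scores. In the same fit Cdkn1a kept 0.80 (SE 0.21, adjusted p = 0.0690). The cortical markers had negative line estimates for 8 of 8 genes, and 3 passed the test. The oligodendrocyte markers had positive estimates for 7 of 8 genes (median 0.20 on the log2 scale), and 2 passed, Mobp (0.33, adjusted p = 0.0206) and Mbp (0.26, adjusted p = 0.0887). After subtracting group means, Sult1a1 had a Pearson r of -0.28 (Spearman's rho -0.03) with the cortical score over the 20 mice. With the oligodendrocyte score r was 0.23 (rho 0.26). The part of each list in the Sult1a1 difference was not tested. Sult1a1 shares 61 of its 1507 exon bases with Sgf29 on the opposite strand, and the strand setting of the counting was not given in the sources used here. Sgf29 itself differed by -0.01 on the log2 scale between the lines (adjusted p = 0.906).

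**Figure D2:**
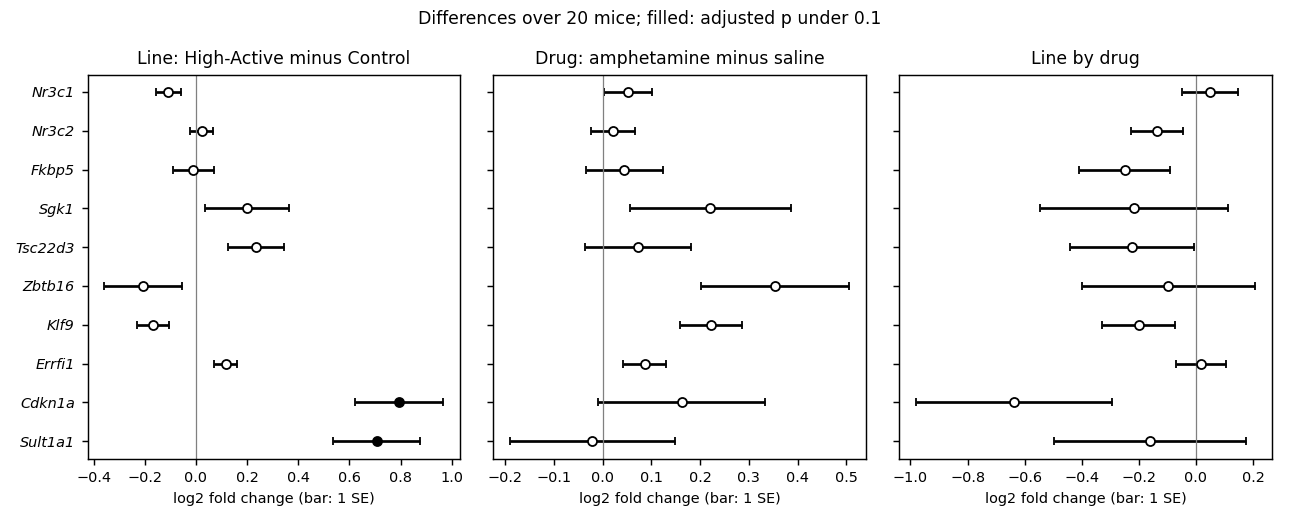
Line, drug and line by drug differences (x axis, log2 fold change from the quasi-likelihood fit over 20 mice) of the 10 genes (y axis), with bars of 1 SE and filled points at an adjusted p under 0.1. The filled points are Cdkn1a at 0.79 and Sult1a1 at 0.71 in the line comparison, and no point is filled in the other 2 comparisons.

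Neither receptor passed the test between the lines. Nr3c1 (ENSMUSG00000024431), the glucocorticoid receptor, had 111, 116, 118, 119.6 and 131 CPM in Control saline and 99.6, 105, 107, 109 and 123 CPM in High-Active saline mice. It had 110.1, 119, 121, 123 and 134 CPM in Control amphetamine and 97.5, 110.0, 119.7, 120.5 and 125 CPM in High-Active amphetamine mice. The lines overlapped, with 6 of 10 High-Active mice below every Control mouse. The line difference was -0.11 on the log2 scale (SE 0.05, 2 SE interval -0.21 to -0.01, adjusted p = 0.165). Nr3c2 (ENSMUSG00000031618), the mineralocorticoid receptor, ranged from 46.2 to 58.9 CPM in Control and from 46.5 to 57.8 CPM in High-Active mice. Its line difference was 0.02 (SE 0.05, adjusted p = 0.791), and the interval of 2 SE ran from -0.07 to 0.11.

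Fkbp5 (ENSMUSG00000024222), the co-chaperone that lowers the receptor's affinity for hormone and is itself induced by it, had the smallest line difference of the set, -0.01 (SE 0.08, 2 SE interval -0.17 to 0.15, adjusted p = 0.953). Control saline mice had 60.6, 66.6, 66.7, 69.2 and 73.6 CPM, and High-Active saline mice 61.6, 63.7, 77.3, 77.5 and 84.5 CPM. Control amphetamine mice had 66.9, 68.1, 72.3, 78.8 and 92.5 CPM, and High-Active amphetamine mice 56.5, 62.2, 63.7, 79.1 and 83.6 CPM. All 4 groups overlapped. Control saline mice were the most even group, with a coefficient of variation of 7.00%, beside 13.5% to 17.0% in the others.

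Among the kinase and the transcription factors, no line difference passed. Sgk1 (ENSMUSG00000019970), a kinase that regulates ion channels and transporters, spread more in High-Active mice (62.5 to 180.0 CPM) than in Control mice (66.7 to 135 CPM). Its line difference was 0.20 on the log2 scale (SE 0.16, adjusted p = 0.474). Tsc22d3 (ENSMUSG00000031431) encodes GILZ, a leucine zipper protein that inhibits inflammatory transcription factors, and had 66.0 to 121 CPM in High-Active and 59.9 to 95.5 CPM in Control mice. Its line difference was 0.23 (SE 0.11, adjusted p = 0.178). Zbtb16 (ENSMUSG00000066687), a zinc finger transcription factor also called PLZF, had a line difference of -0.21 (SE 0.15, adjusted p = 0.411).

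Klf9 and Errfi1 lay next to the threshold between the lines. Klf9 (ENSMUSG00000033863), a Krüppel-like transcription factor, was 201 ± 28.3 CPM in Control and 178 ± 22.2 CPM in High-Active mice (SD, n = 10 each). The difference was -0.17 (SE 0.06, adjusted p = 0.105). Errfi1 (ENSMUSG00000028967), a feedback inhibitor of the epidermal growth factor receptor, was 28.2 ± 1.503 CPM and 30.6 ± 2.50 CPM (SD, n = 10 each), a difference of 0.12 (SE 0.04, adjusted p = 0.107). DESeq2, in which 19% of all genes passed, called both in addition to Cdkn1a and Sult1a1. The likelihood-ratio test with robust dispersions, in which 15.3% passed, called Klf9 and Zbtb16 in addition to them.

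The second comparison asked which genes differed 2 hours after amphetamine, averaged over both lines. None of the 10 genes passed an adjusted p of 0.1 in the quasi-likelihood test, in which 0% of all genes passed. At an unadjusted p under 0.05 there were 2 of 10, Klf9 and Zbtb16, both higher, beside 12.5% of all genes. DESeq2 called Klf9 (2.64% of all genes passed), and the likelihood-ratio test with robust dispersions called Klf9 and Zbtb16 (3.1% of all genes passed). The estimates were positive for 9 of the 10 genes, beside 47.0% of all genes. Their median was 0.08 on the log2 scale, beside -0.01 over all genes. Within Control mice they were positive for 10 of 10 (median 0.18), beside 49.0% of all genes. Within High-Active mice they were positive for 5 of 10 (median 0.02), beside 47.7% of all genes. Several of the 10 genes varied together over mice, as given below, so these signs are not independent of each other.

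Klf9 had the largest drug difference relative to its error. Control saline mice had 165, 165, 184, 188 and 189 CPM, and Control amphetamine mice 203, 213, 214, 231 and 254 CPM. High-Active saline mice had 140.1, 165, 169, 182 and 195 CPM, and High-Active amphetamine mice 161, 175, 181, 186 and 223 CPM. Every Control amphetamine mouse was above every Control saline mouse, whereas the High-Active groups overlapped. The 2 Control groups did not overlap, whichever was higher, for 1.11% of all genes. The drug difference was 0.22 on the log2 scale, or 1.17-fold (SE 0.06, adjusted p = 0.204, exact permutation p = 0.00535), and it ranked 170 of 14792 genes. Within Control mice it was 0.32 (SE 0.09, adjusted p = 0.677, quasi-likelihood test), and an exact permutation test of log2 CPM gave p = 0.00794 (two-sided, n = 5 per group), the smallest p this design allows. Within High-Active mice the difference was 0.12 (SE 0.09, adjusted p = 0.784). The responses of the lines differed by -0.20 (SE 0.13, adjusted p = 1.00, exact permutation p = 0.252), which did not pass. The 2 SE interval of this value ran from -0.46 to 0.05. Without High-Active amphetamine mouse 415 the drug difference was 0.25 (adjusted p = 0.0783), in a fit in which 339 of 14762 genes passed. Of the 20 fits with 1 mouse left out, Klf9 passed for the drug in this 1 only. The estimates of those fits ran from 0.18 to 0.25, with an adjusted p of up to 0.369 (quasi-likelihood test).

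The cortical excitatory neuron markers were also higher in the amphetamine groups. All 8 were higher at an unadjusted p under 0.05 in the quasi-likelihood test, with a median difference of 0.99 on the log2 scale. However, 0 passed the adjusted threshold in that test, 5 in DESeq2 and 6 in the robust likelihood-ratio test. Within High-Active mice their median was 1.48, with 7 of 8 at an unadjusted p under 0.05. Within Control mice, where Klf9 differed more, the marker median was 0.46, with 0 of 8 at that p. Whether the drug or the share of cortex in the dissected tissue gave these marker values was not tested. With cortical and oligodendrocyte marker scores as covariates, the Klf9 drug difference was 0.14 (SE 0.08, adjusted p = 0.835). Over the 20 mice, after subtracting the mean of each group, Klf9 had a Pearson r of 0.47 (Spearman's rho 0.47) with the cortical score and of 0.67 (rho 0.71) with the striatal projection neuron score. It had r = -0.61 (rho -0.51) with the astrocyte score and -0.58 (rho -0.57) with the choroid plexus score. These correlations are descriptions over mice that share parents, and the part of tissue composition in the Klf9 values was not tested.

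**Figure D3:**
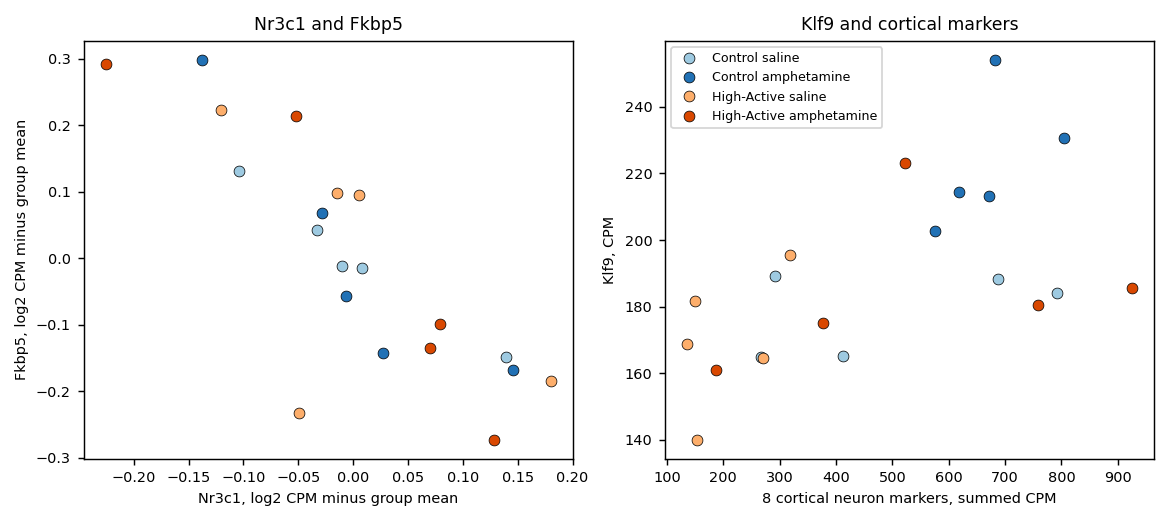
Left, Fkbp5 against Nr3c1 in each of 20 mice, both as log2 CPM minus the mean of the mouse's group; the points fall from upper left to lower right (r = -0.83). Right, Klf9 in CPM against the summed CPM of 8 cortical neuron markers. Control amphetamine mice lie at 203 to 254 CPM of Klf9 and 575 to 804 CPM of markers. The ranges are 165 to 189 and 267 to 793 CPM in Control saline mice. They are 140 to 195 and 136 to 318 CPM in High-Active saline mice, and 161 to 223 and 187 to 925 CPM in High-Active amphetamine mice.

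Zbtb16 had a drug difference of 0.35 on the log2 scale (SE 0.15, adjusted p = 0.352, exact permutation p = 0.0218). Control saline mice had 24.7, 28.3, 29.8, 32.2 and 36.3 CPM, and Control amphetamine mice 32.2, 38.8, 40.0, 41.7 and 47.2 CPM. High-Active saline mice had 16.7, 17.6, 20.8, 37.6 and 42.8 CPM, and High-Active amphetamine mice 26.1, 33.3, 33.3, 37.4 and 37.5 CPM. The High-Active saline group fell into 3 low mice (483, 499 and 871) and 2 high mice (197 and 886), with a coefficient of variation of 45%, while the other groups had 13.5% to 14.4%. The amphetamine mice of the same line lay between these, which gave a difference of 0.31 within High-Active mice (SE 0.21, adjusted p = 0.764). In Control mice it was 0.40 (SE 0.21, adjusted p = 0.791), with 4 of 5 amphetamine mice above every saline mouse. The fit with cortical and oligodendrocyte marker scores as covariates gave 0.14 (adjusted p = 0.911) for the drug difference. No endothelial score was in that fit.

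No other drug difference passed. Errfi1 differed by 0.09 (SE 0.04, 2 SE interval -0.00 to 0.17, adjusted p = 0.436, exact permutation p = 0.0529). Sgk1 differed by 0.22 (SE 0.16, adjusted p = 0.627) and Cdkn1a by 0.16 (SE 0.17, adjusted p = 0.751). Sgk1 had 66.7, 90.0, 99.0, 102 and 109.6 CPM in Control saline and 99.6, 107, 120.1, 125 and 135 CPM in Control amphetamine mice. In High-Active mice it had 62.5, 97.9, 109, 153 and 156 CPM after saline and 70.0, 98.7, 136, 140.1 and 180.0 CPM after amphetamine. The Control groups overlapped, with 3 of 5 amphetamine mice above every saline mouse, and the High-Active groups covered nearly the same range. Fkbp5 differed by 0.04 (2 SE interval -0.11 to 0.20), Nr3c1 by 0.05 (-0.05 to 0.15), Nr3c2 by 0.02 (-0.07 to 0.11), Tsc22d3 by 0.07 (-0.15 to 0.29) and Sult1a1 by -0.02 (-0.36 to 0.32). Among 6 families in which both injections were given, Klf9, Zbtb16, Errfi1, Tsc22d3 and Nr3c1 were higher in the amphetamine littermates in 4, Sgk1 in 3, and the other 4 genes in 2. A quasi-likelihood fit to the 13 mice of these families, with the family as a block, gave drug differences of 0.16 for Klf9 (SE 0.10, adjusted p = 0.979), 0.33 for Zbtb16 (SE 0.19, adjusted p = 0.979) and 0.12 for Nr3c1 (SE 0.06, adjusted p = 0.979). In that fit the estimates were positive for 6 of the 10 genes, 0 passed, and 0 had an unadjusted p under 0.05, beside 4.23% of all genes.

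The third comparison asked whether the lines differed in their response to the drug. None of the 10 genes passed in the quasi-likelihood test (0% of all genes), in DESeq2 (0%) or in the robust likelihood-ratio test (0.0406%). At an unadjusted p under 0.05 in the quasi-likelihood test there were 0 of 10, beside 2.97% of all genes. The estimates were negative, that is the response was lower in High-Active mice, for 8 of 10 genes, but for 4 of 10 in the fit to littermates with the family as a block. These signs too are not independent, as several of the genes varied together. The largest was that of Cdkn1a, given above. Fkbp5 had -0.25 (SE 0.16, exact permutation p = 0.155), made up of 0.17 within Control mice and -0.08 within High-Active mice. For Tsc22d3 the value was -0.22 (SE 0.22, exact permutation p = 0.393), from 0.18 within Control mice and -0.04 within High-Active mice.

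The genes were also compared from mouse to mouse, after the mean of each group was subtracted. Nr3c1 and Fkbp5 ran opposite to each other, with a Pearson r of -0.83 (Spearman's rho -0.81, n = 20 mice). Without mice 415 and 483, the farthest from the median of Nr3c1, r was -0.79. Among the 14791 other genes tested, Nr3c1 had the most negative correlation with Fkbp5 of all. In each of the 4 groups the mouse with the least Nr3c1 had the most Fkbp5, mouse 448 (111 and 73.6 CPM), mouse 454 (110.1 and 92.5 CPM), mouse 197 (99.6 and 84.5 CPM) and mouse 415 (97.5 and 83.6 CPM). In 3 of the 4 groups the mouse with the most Nr3c1 had the least Fkbp5. Nr3c1 also ran opposite to Tsc22d3 (r = -0.75, rho -0.68) and Sult1a1 (r = -0.67, rho -0.48). For Sult1a1, r was -0.46 without mice 415 and 483. An r below -0.7 with Nr3c1 was found for 48 of the 14792 genes, and these values were not tested. On the first principal component of all genes, which held 14.3% of the variance, Klf9 had r = 0.72, Nr3c1 0.53 and Fkbp5 -0.24, and the part of that component in the pairs was not tested.

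**Figure D4:**
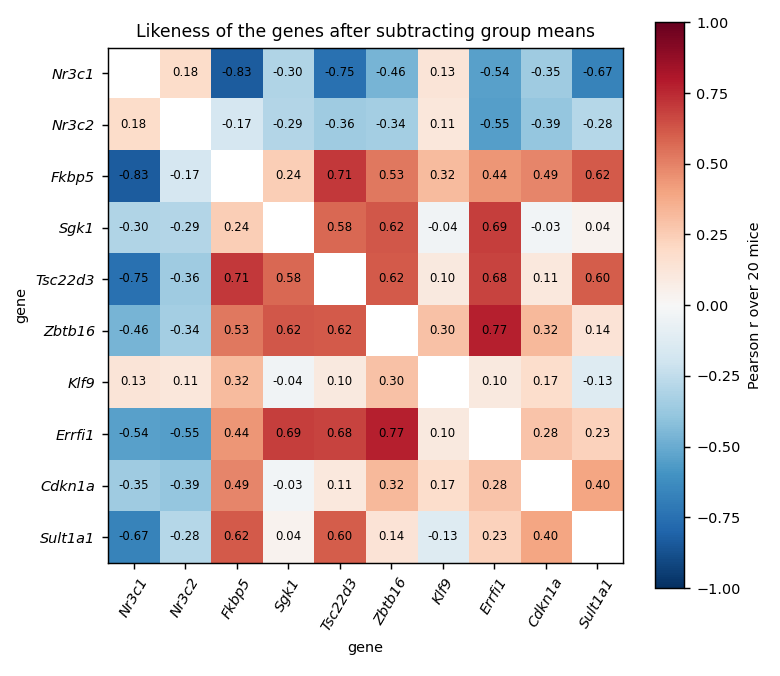
Pearson r over 20 mice between each pair of the 10 genes (both axes), computed on log2 CPM after subtracting group means, with blue for negative and red for positive values. Nr3c1 is negative with Fkbp5 (-0.83) and Tsc22d3 (-0.75), and Zbtb16 and Errfi1 share the highest positive value (0.77).

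Among the induced genes the correlations ranged from -0.13 to 0.77. Klf9 had the weakest, between -0.13 and 0.32 with the other 9 genes of the set. Sgk1 had r = -0.03 with Cdkn1a and 0.04 with Sult1a1, and Zbtb16 had 0.14 with Sult1a1. Without mice 415 and 454, the farthest from the median of Sult1a1, its r was -0.06 with Sgk1, -0.03 with Errfi1 and -0.0046 with Zbtb16. Errfi1 and Zbtb16 had r = 0.77 (rho 0.77), and Zbtb16 was the second most alike of all genes to Errfi1. Fkbp5 and Tsc22d3 had r = 0.71 (rho 0.68). The same mice recurred at the top. Of the 8 induced genes, mice 415 and 886 were among the 5 highest of all mice in 6 and mouse 197 in 5, all of them High-Active. Mice 415 (amphetamine) and 886 (saline) had the same sire and dam, so they were not independent. These ranks used levels without subtracting group means, so the line differences of Cdkn1a and Sult1a1 entered them. For Klf9, mouse 415 ranked 19 of 20. Mouse 454, Control amphetamine, was above its group mean in all 8 genes, and mouse 192, High-Active amphetamine, was below its group mean in all 8. Mouse 499 had the highest Cdkn1a of all mice (22.4 CPM) and the lowest Sgk1 (62.5 CPM). Errfi1 and Zbtb16 correlated with the endothelial marker score at r = -0.71 (rho -0.68) and -0.70 (rho -0.68). Of the 7 endothelial markers, 0 had a positive drug estimate within Control mice (median -0.22 on the log2 scale). Within High-Active mice 6 did (median 0.10), and 0 passed in either line. The part of vascular content in Errfi1 and Zbtb16 was not tested.

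The genes most like each member, by Pearson r over the 20 mice after subtracting group means, were as follows. Sgk1 was most like Nfkbia, the inhibitor of NF-kappa B and itself a glucocorticoid-induced gene (r = 0.88, rho 0.88). Klf9 was most like Rap2b (r = 0.89, rho 0.91) and Sult1a1 most like Pnpla2, a triglyceride lipase (r = 0.89, rho 0.84). For Nr3c1 the first was Dagla (r = 0.85, rho 0.79), and for Nr3c2 it was Zbtb20 (r = 0.81, rho 0.73). Fkbp5 was most like Ppp2r5b (r = 0.82, rho 0.85), Tsc22d3 most like 1110051M20Rik (r = 0.85, rho 0.83) and Zbtb16 most like Ift46 (r = 0.84, rho 0.75). The closest to Errfi1 was Ndufa13 (r = 0.84, rho 0.90) and to Cdkn1a it was Def8 (r = 0.76, rho 0.71). Klf9 had 143 genes with r above 0.7 and Cdkn1a had 3.

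The wider pathway was read from lists of other genes. Of 30 other glucocorticoid-induced genes, 29 were tested, and 6 were higher and 1 lower in High-Active mice, beside 7.63% higher and 6.9% lower of all genes. The median of the 29 was 0.13 on the log2 scale, beside -0.00 over all genes. The genes with the smallest p were Ddit4, an inhibitor of mTOR signaling (0.27, SE 0.06, adjusted p = 0.0165), Sdc4, a syndecan (0.38, SE 0.09, adjusted p = 0.0204), and Glul, glutamine synthetase (0.23, SE 0.06, adjusted p = 0.0213). Gpd1, the glycerol-3-phosphate dehydrogenase, was the gene that was lower (-0.28, SE 0.10, adjusted p = 0.0749). Glul and Sdc4 are abundant in astrocytes, and of 7 astrocyte markers 2 were higher and 2 lower in High-Active mice; their part was not tested. For the drug, 0 of the 29 passed in the quasi-likelihood test, and 3 were higher and 1 lower at an unadjusted p under 0.05, near the 12.5% of all genes. DESeq2 and the likelihood-ratio test each called 1 higher and 1 lower, beside 2.64% and 3.1% of all genes.

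Some transcripts of proteins that hold the receptor or handle its ligand also differed between the lines. Of 13 tested chaperone and steroid handling genes, 2 were higher and 1 lower in High-Active mice, beside 14.5% of all genes in either direction. Ptges3, the p23 co-chaperone of Hsp90, differed by 0.36 on the log2 scale (SE 0.07, adjusted p = 0.00647), and Hspa8, the constitutive Hsc70, by 0.26 (SE 0.09, adjusted p = 0.0736). Abcb1b, a P-glycoprotein gene whose product exports steroids, differed by -0.98 (SE 0.17, adjusted p = 0.00206). Its level was near the 1 CPM filter, with means of 2.71 CPM in Control saline and 2.58 CPM in Control amphetamine mice. The means were 2.01 CPM in High-Active saline and 0.89 CPM in High-Active amphetamine mice. Its drug difference was -0.62 (SE 0.17, adjusted p = 0.198, quasi-likelihood test). Between the lines, 0 genes of this list were called lower within saline mice and 1 within amphetamine mice. In these comparisons 3.74% and 1.3% of all genes passed. For the drug, DESeq2 and the robust likelihood-ratio test each called 1 gene of the list lower, beside 2.64% and 3.1% of all genes. Abcb1b has a close paralog, Abcb1a, so reads of the pair could be confused. Abcb1a had group means of 26.1 to 28.9 CPM and a line difference of -0.02 (SE 0.09, adjusted p = 0.920). Of 12 coregulators, 2 passed, near the same 14.5%. Med1 was higher (0.16, SE 0.06, adjusted p = 0.0913) and Nrip1, a corepressor, lower (-0.18, SE 0.06, adjusted p = 0.0850). Of 7 tested genes of other steroid receptors and the corticotropin-releasing hormone system, Crhbp, the binding protein of that hormone, was the only one to pass, a share near 14.5%, and was lower (-0.40, SE 0.15, adjusted p = 0.0966).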

How the data were processed

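Striatal RNA of 20 mice was sequenced with a stranded kit. According to the submitters' processing notes and the study's methods, paired reads were aligned with TopHat2 2.0.10 and counted on Ensembl genes of GRCm38 with HTSeq 0.6.1. The authors deposited raw counts per gene and mouse, without normalization, and 15.97% to 17.49% of each table lay in lines that name no gene, which were left out. Symbols were taken from a gene name table, which matched 37607 of 39179 identifiers. Genes over 1 CPM in at least 3 mice (14792) were normalized by TMM and fitted with edgeR 4.0.16 (quasi-likelihood, 1 mean per group, no covariate). Line, drug and line by drug differences were adjusted by Benjamini-Hochberg over all genes, with a threshold of 0.1. Per-mouse CPM used TMM library sizes, log2 CPM a prior count of 2, and RPKM the exon bases of GENCODE vM21. DESeq2 1.42.0 and limma 3.58.1 gave alternatives, in R 4.3.3. The procedure was tested on simulated data. The members and lists were chosen with earlier results of these data known, and all 10 members and up to 4 called genes per list and comparison with the smallest p are named, with the most alike gene of each member. Replicates are separate mice, some of them littermates, so p values treat related mice as independent. Annotated noncoding transcripts overlap Cdkn1a, Errfi1, Fkbp5, Klf9 and Nr3c2, and their reads may be uncertain. No 2 libraries of a group agreed within sampling noise.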

Additional observations from a re-analysis of the deposited data

How the results depend on the processing

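Cdkn1a and Sult1a1 stayed above the threshold between the lines with each mouse left out in turn (0.69 to 0.87 and 0.59 to 0.80). Calls over all genes for the line were 2149, and 1381 to 2535 with 1 mouse left out. They were 453 with cortex and oligodendrocyte scores as covariates, 600 with counts summed over littermates, 553 in saline mice alone and 193 in amphetamine mice alone. The drug gave 0 calls, but 391 with DESeq2, 458 with the likelihood-ratio test with robust dispersions, and 0 to 339 with 1 mouse left out, the most without High-Active amphetamine mouse 415. The line by drug difference gave 0 calls, 6 with the likelihood-ratio test and 0 to 1 with 1 mouse left out. A fit to 13 littermates of 6 families given both injections, with the family as a block, chosen after seeing the data, gave 1 call each for the drug and the line by drug difference. In the 20 fits with 1 mouse left out, Klf9 passed between the lines in 6, Errfi1 in 4 and Nr3c1 in 1, beside the 1381 to 2535 genes given above. For the drug, Klf9 passed in 1 of these fits. Sult1a1 lost its call in the marker score fit, and within each injection alone (0.79 and 0.62), and Cdkn1a lost it in amphetamine mice alone (0.48).

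Each difference whose direction turned had missed the threshold over all mice. With the marker scores, the drug difference was -0.0109 for Nr3c1 and 0.119 for Sult1a1, and the line by drug difference -0.00312 for Errfi1. A choroid plexus score, chosen after seeing the data, gave 0.000869 for the drug difference of Sult1a1. The line difference of Fkbp5 was 0.115 in saline mice alone and that of Nr3c2 -0.0462 in amphetamine mice alone. The drug difference of Sult1a1 was 0.0597 in Control mice alone. In High-Active mice alone it was -0.0475 for Nr3c2, -0.0804 for Fkbp5, -0.0398 for Tsc22d3 and -0.157 for Cdkn1a. The line by drug difference of Zbtb16 was 0.207 with the likelihood-ratio test and 0.00568 between means of log2 CPM. With 1 mouse left out, line differences ran from -0.000998 to 0.0432 for Nr3c2 and -0.0486 to 0.0311 for Fkbp5, the drug difference of Sult1a1 from -0.140 to 0.0602, and line by drug differences from -0.229 to 0.132 for Zbtb16, -0.0208 to 0.0566 for Errfi1 and -0.399 to 0.0285 for Sult1a1. In the littermates paired by family, the drug difference was -0.0410 for Nr3c2, -0.0605 for Fkbp5 and -0.00542 for Tsc22d3. Their line by drug difference was -0.129 for Nr3c1, 0.0394 for Fkbp5, 0.0164 for Sgk1, 0.0814 for Tsc22d3, 0.249 for Zbtb16 and 0.248 for Sult1a1. That fit called none of the 10 genes. The causes were not tested. The line difference lies between families and was not fitted that way. A random block for family over all mice in limma-voom, with a correlation of 0.0264, changed no call of the 10 genes.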
